A study of Mus musculus with 20 samples.

Results

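Respiratory complex I, the NADH:ubiquinone oxidoreductase of the inner mitochondrial membrane, was described here through the genes that encode its nuclear subunits and a part of its assembly factors. The genes were chosen by name alone, as the rows called Nduf followed by a, ab, b, c, s, v or af and a number, together with Timmdc1. This rule found 47 of the 22660 rows of the count table. By role they fall into 7 core subunits, 30 accessory subunits (9 of the peripheral arm, 20 of the membrane arm and the acyl carrier Ndufab1), Ndufa4 and 9 assembly factors. RNA came from whole plantaris muscle of 20 old male C57BL/6 J mice (2 years old per the labels), with 5 mice in each of 4 groups. Mechanical overload (MOV) was produced by excising part of the gastrocnemius and soleus, and sham mice had only the skin opened. Both surgeries were combined with gavage of the senolytic pair D + Q, in which dasatinib (5 mg/kg) inhibits tyrosine kinases and quercetin (50 mg/kg) is a plant flavonoid, or with polyethylene glycol vehicle. Muscle was collected at day 14 after gavage on days 7 and 10, although for sham mice the deposited design puts the later gavage on day 14. No group carries a transgene or deletion, every mouse is old and no young group is compared here, and different mice make up the 4 groups, so each value below is 1 mouse.

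Complex I takes electrons from NADH, passes them along a chain of iron-sulfur clusters to ubiquinone and pumps protons across the inner membrane. It has an L shape. The peripheral arm reaches into the matrix and holds the flavin and the iron-sulfur clusters, all carried by nuclear encoded core subunits, and part of the ubiquinone site. The membrane arm does the pumping and is built around core subunits that the mitochondrial genome encodes, the mt-Nd genes. Accessory subunits surround this core and stabilize it, and assembly factors join, modify or hold subunits during construction and then leave. Skeletal muscle fibres rely on complex I for oxidative ATP production, and oxidative fibres hold more of it than glycolytic fibres.

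The total estimated count per mouse ranged from 17887495 to 26234505. Each of the 47 genes had at least 97 counts in every mouse, and all 47 passed the filter of at least 10 counts in at least 5 mice in every fit. Levels are given as CPM (counts relative to library size) scaled with TMM factors, which ranged from 0.830 to 0.885 in sham mice and from 1.06 to 1.23 in MOV mice. Because these factors differ so much between surgeries, a comparison of MOV with sham depends on the scaling. Values or calls with total counts only are given beside the main ones for the lists and for the genes with the largest falls. Whether mice of different groups overlap was judged on the TMM scale only, and groups that separate there can overlap without the factors. A gene was called when its Benjamini-Hochberg adjusted p, taken over every gene tested by the quasi-likelihood method of edgeR, was under 0.05. Relative to the mean of the vehicle sham group, the median of the 47 genes was 0.16 higher on the log2 scale in vehicle sham mouse 2, the mouse farthest from the mean of its own group, followed by vehicle MOV mouse 3 at -0.12 from the mean of the vehicle MOV group. Results that rest on mouse 2 are therefore also given without it. Summed over 12 myofibre markers, levels ran from 184400 to 217700 CPM in sham mice and from 105400 to 141000 CPM in MOV mice, so the tissue held the fibre genes its label implies. The summed CPM of 8 fibroblast markers ran from 443 to 1239 in sham mice and from 6875 to 17170 in MOV mice, and that of 8 macrophage markers from 79.1 to 217 and from 355 to 1135.

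Stretches of upstream sequence are shown for 3 subunits because the binding sequence of NRF1, a transcription factor known for driving respiratory chain genes, was read in them and no annotated exon falls within them. Each is the 150 bases before the start of the gene's canonical transcript in GRCm39 (GENCODE vM39), 5′ to 3′ on the strand of the gene, with the match to GCGCANGCG on either strand in capitals. All 3 genes encode accessory subunits of the membrane arm.
Ndufb11 (chrX:20484458-20484607, minus strand): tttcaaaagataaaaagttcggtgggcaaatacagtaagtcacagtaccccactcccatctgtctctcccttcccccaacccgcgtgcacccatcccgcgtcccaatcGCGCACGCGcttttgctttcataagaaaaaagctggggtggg
Ndufb4 (chr16:37474816-37474965, minus strand): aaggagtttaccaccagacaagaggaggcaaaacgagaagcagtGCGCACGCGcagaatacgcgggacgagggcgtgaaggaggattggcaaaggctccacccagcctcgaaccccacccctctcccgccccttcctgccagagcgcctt
Ndufs5 (chr4:123612003-123612152, minus strand): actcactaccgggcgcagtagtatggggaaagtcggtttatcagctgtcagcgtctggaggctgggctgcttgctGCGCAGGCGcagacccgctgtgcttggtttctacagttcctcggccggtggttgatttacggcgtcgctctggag
In windows from 250 bases before to 50 bases after the start, 7 of the 47 genes (14.9%) held this sequence, against 8.09% of 21593 windows of the same length across the genome's protein-coding genes. Of the other letters searched on both strands, the ETS sequence CCGGAAG read by GABPA was found in 8 of the 47 windows (17% against 10.3%), the ERR sequence AAGGTCA in 4 (8.51% against 4.51%) and the YY1 sequence AAGATGG in 7 (14.9% against 5.71%). The GC box GGGCGG occurred in 22 (46.8% against 42.6%), TATAAA in 5 (10.6% against 13.2%) and CCAAT in 16 (34% against 39.9%). Among the 15744 windows of genes in the count table the shares were 9.89% for NRF1, 13% for ETS, 3.79% for ERR, 5.85% for YY1, 53.2% for the GC box, 9.31% for TATAAA and 38.9% for CCAAT, so the direction for the GC box and TATAAA turned with the set of windows. A match describes letters in the window and not a bound site. With MOV in vehicle mice, the log2 fold changes of the 3 genes shown were -0.57 for Ndufb11, -0.59 for Ndufb4 and -0.34 for Ndufs5, the last of which was 0.04 with total counts only.

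In vehicle sham muscle, the level per kilobase of canonical transcript separated the structural genes from the assembly factors. Ndufa4 was highest, at 743 CPM per kilobase. Ndufb8, of the membrane arm, stood at 452 CPM per kilobase. The 37 subunits without Ndufa4 lay between 27.1 and 451.5 CPM per kilobase, and the 9 assembly factors lay between 7.48 and 21.9, below every subunit. The lowest were Ndufaf1 at 7.48, Ndufaf7 at 8.53 and Ndufaf3 at 9.37 CPM per kilobase. Some canonical transcripts are long for a short protein, such as that of Ndufa10 at 7389 bases with 1065 coding bases, and this lowers their level on the per kilobase scale. The transcript of Ndufaf1 has 4780 bases with 990 coding bases. In CPM Ndufaf1 had a mean of 35.75 in vehicle sham mice, above Ndufaf3 at 14.03 and Ndufaf2 at 7.12.

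Within a mouse, the genes moved together. Over the 20 mice, the correlation (Pearson's r) of each gene's log2 CPM with the median of the other 46 ranged from 0.18 to 0.99, with a median of 0.95, in mice that also differ by surgery. After the group mean was subtracted, r ranged from -0.14 to 0.92 with a median of 0.75, highest in Ndufb8 (0.92) and lowest in Ndufaf5 (-0.14). The points share libraries and scaling, so these values are descriptive. Ndufaf2, an assembly factor that acts late in building the peripheral arm, had the lowest r over all mice (0.18) but 0.61 within groups.

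**Figure D1:**
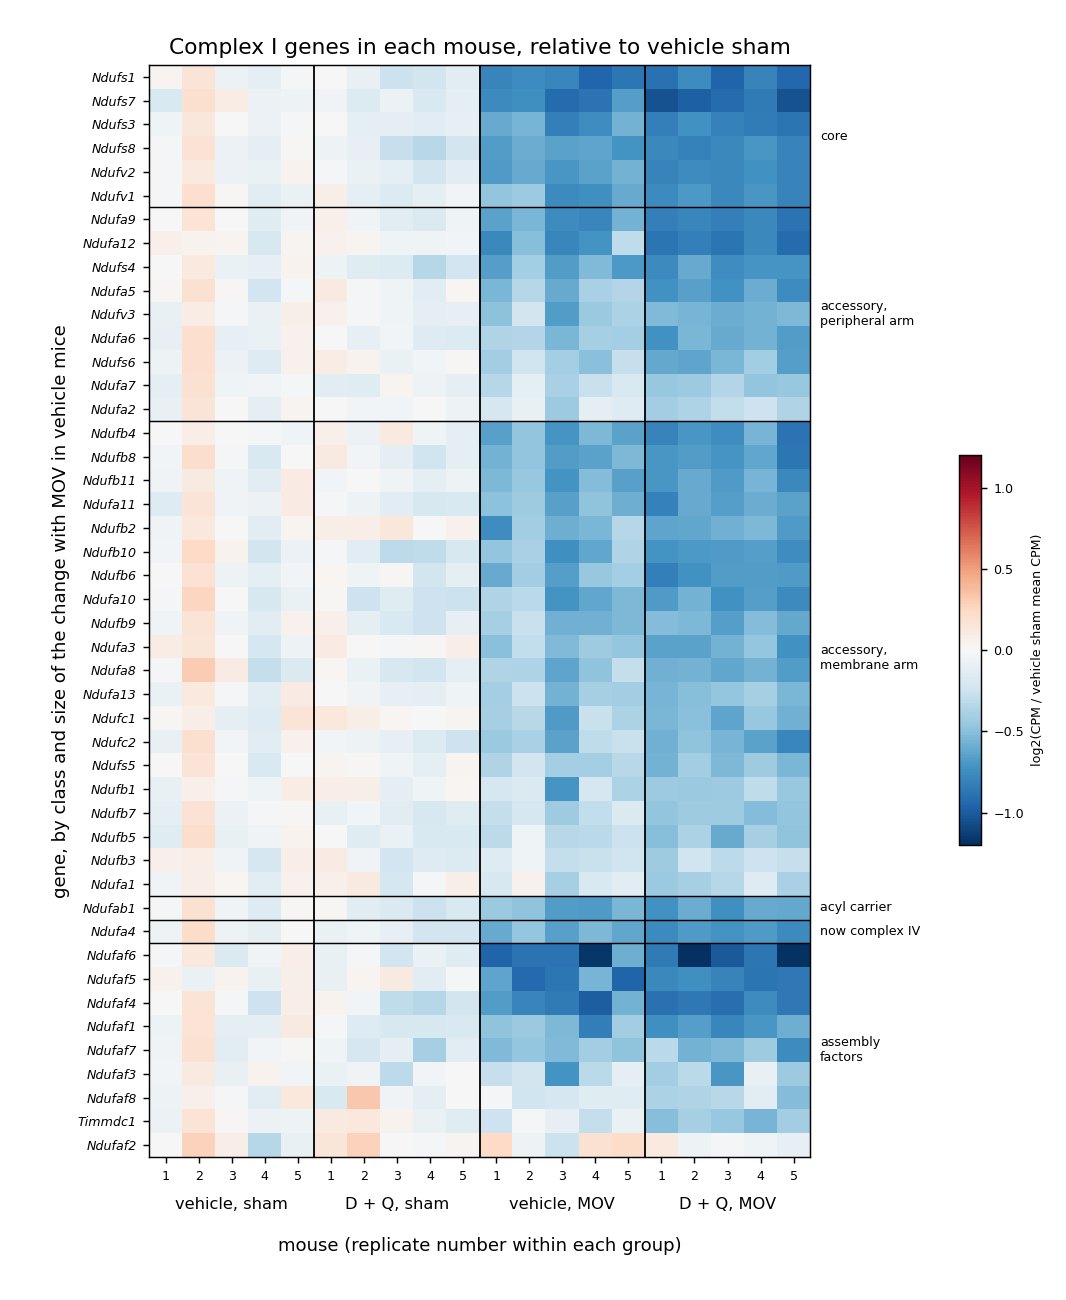
Heat map of the log2 ratio of CPM to the mean of the vehicle sham group for 46 of the 47 complex I genes (rows, by class) in 20 mice (columns, replicate number within group), with blue below and red above that mean. Nearly every row turns blue across the 10 MOV mice, Ndufaf2 stays near white, and vehicle sham mouse 2 is redder than its group by a median of 0.16; with total counts as the only scaling the MOV blocks would be paler, with a median change of -0.12 in vehicle mice.

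The comparison of MOV with sham in vehicle mice asks how the complex I genes stood after 14 days of overload. On the TMM scale, 43 of the 47 genes were called lower with MOV and 0 higher, against 29.8% of 14601 genes tested that were called lower. In 39 genes all 5 MOV mice lay below all 5 sham mice, which held for 22.6% of the genes tested. The median log2 fold change of the 47 was -0.50, that is 1.41-fold lower, with a range from -0.88 to 0.09, while the median of all genes tested was -0.02. In D + Q mice 45 of the 47 genes were called lower and 0 higher, against 30.9% of 14913 genes tested. All 5 MOV mice lay below all 5 sham mice in 42 genes, against 26.5%, and the median log2 fold change was again -0.50 (range -0.87 to -0.07). In whole muscle, fewer cells of a type and less RNA per cell cannot be told apart.

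The size and for some genes the direction of this difference depended on the scaling. With total counts only, the median of all genes tested moved to 0.36 in vehicle mice and 0.39 in D + Q mice, and the calls became 18 lower and 6 higher in vehicle mice and 24 lower and 2 higher in D + Q mice. The median of the 47 was then -0.12 and -0.14. Relative to the median of all genes the 47 genes stood at -0.48 in vehicle mice and -0.53 in D + Q mice under both scalings. A change of scaling factors moves all genes by nearly the same amount, so this sameness is no check on the scaling. As a share of all counts, which uses no scaling factor, the 47 genes took 0.64% to 0.78% in vehicle sham mice, 0.59% to 0.65% in vehicle MOV mice, 0.61% to 0.69% in D + Q sham mice and 0.56% to 0.60% in D + Q MOV mice. Without vehicle sham mouse 2, 39 genes were called lower in vehicle mice and the median was -0.43.

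**Figure D2:**
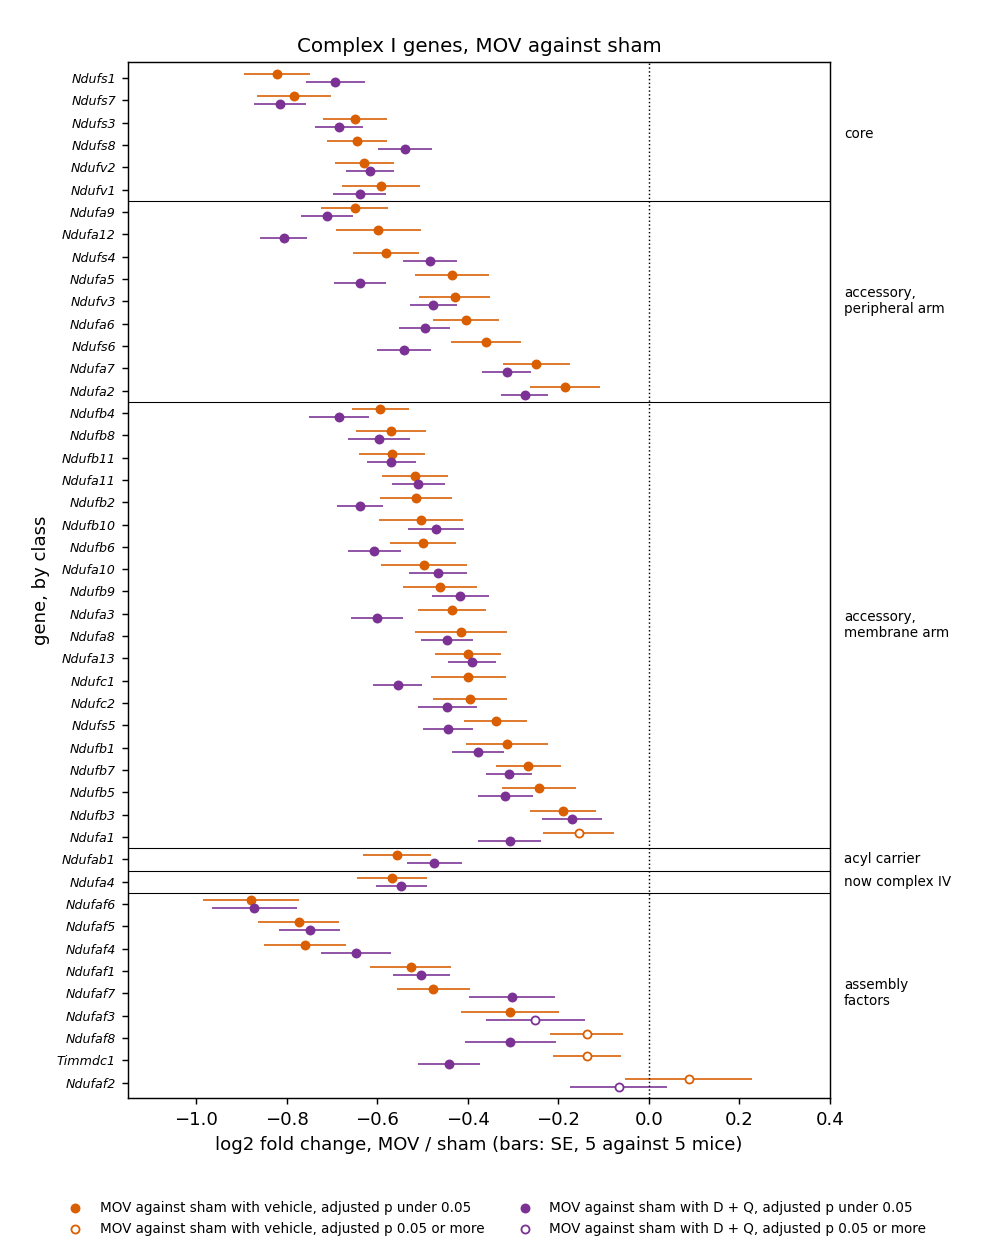
Log2 fold change of MOV against sham on the TMM scale (x axis, bars show SE, 5 against 5 mice) for 46 of the 47 complex I genes (y axis, by class) in vehicle mice (orange) and D + Q mice (purple), with filled points at adjusted p under 0.05. All core subunits drawn lie at or below -0.54 in both treatments, while the assembly factors spread from -0.88 to 0.09; with total counts only, 6 genes are called higher in vehicle mice and 2 in D + Q mice.

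The 7 core subunits fell in both treatments and kept this call with total counts only. Their median log2 fold change was -0.64 in vehicle mice and -0.64 in D + Q mice (-0.27 in both with total counts only), below that of the accessory subunits of the peripheral arm (-0.43 and -0.50) and of the membrane arm (-0.43 and -0.46). Ndufs1, the largest subunit, carries iron-sulfur clusters near the NADH site. It stood at 486, 531, 454, 438 and 473 CPM in the vehicle sham mice and at 275, 283, 277, 246 and 261 CPM in the vehicle MOV mice. With D + Q the levels were 474, 448, 399, 408 and 436 CPM in sham mice and 256, 283, 244, 272 and 248 CPM with MOV. Every MOV mouse lay below every sham mouse. On the TMM scale Ndufs1 fell by 43.4% in vehicle mice (log2 fold change -0.82 ± 0.074 (SE), adjusted p = 2.8e-07) and by 38.1% in D + Q mice (log2 fold change -0.69 ± 0.065 (SE), adjusted p = 4.59e-08). With total counts only its log2 fold changes were -0.45 in vehicle mice and -0.33 in D + Q mice.

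Ndufs7, which lines the ubiquinone pocket and holds the last iron-sulfur cluster, was the core subunit with the largest fall in D + Q mice. Levels were 237, 308, 286, 256 and 258 CPM in vehicle sham mice and 159, 161, 142, 146 and 170 CPM in vehicle MOV mice. They were 261, 240, 257, 237 and 249.6 CPM in D + Q sham mice and 130.3, 136, 142, 149.8 and 129.9 CPM in D + Q MOV mice. The highest MOV mouse of either treatment stayed below the lowest sham mouse. On the TMM scale the fall was 41.9% in vehicle mice (log2 fold change -0.78 ± 0.082 (SE), adjusted p = 1.27e-06) and 43.1% in D + Q mice (log2 fold change -0.81 ± 0.057 (SE), adjusted p = 1.54e-09). With total counts only the log2 fold changes of Ndufs7 were -0.41 in vehicle mice and -0.45 in D + Q mice. Other core subunits had smaller values. Ndufs8 had log2 fold changes of -0.64 ± 0.066 (SE) and -0.54 ± 0.06 in vehicle and D + Q mice and Ndufs3 of -0.65 ± 0.071 and -0.68 ± 0.053. Ndufv1, which binds NADH and the flavin, had -0.59 ± 0.086 and -0.64 ± 0.058, and its partner Ndufv2 had -0.63 ± 0.064 and -0.62 ± 0.054. On the TMM scale none of these 4 overlapped between MOV and sham mice in either treatment. With total counts only, Ndufs8, Ndufs3, Ndufv1 and Ndufv2 had -0.27, -0.28, -0.22 and -0.25 in vehicle mice. In D + Q mice they had -0.17, -0.32, -0.27 and -0.25.

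Among the 9 accessory subunits of the peripheral arm, 9 were called lower in each treatment on the TMM scale, against 3 lower and 1 higher with total counts only in vehicle mice and 5 lower in D + Q mice. Ndufa9, a nucleotide-binding subunit that sits close to the ubiquinone site, showed 238, 269, 241, 217 and 233 CPM in vehicle sham mice against 153, 163, 142, 139.6 and 162 CPM in vehicle MOV mice. Its levels were 250.4, 233, 219, 212 and 231 CPM in D + Q sham mice against 136, 139.6, 135, 140.4 and 129 CPM in D + Q MOV mice. The groups did not overlap on the TMM scale, and the log2 fold change was -0.65 ± 0.074 (SE) in vehicle mice and -0.71 ± 0.057 in D + Q mice. With total counts only it was -0.28 and -0.35. Ndufa12, which takes the place that Ndufaf2 holds during assembly, had the largest fall of the class in D + Q mice.

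The levels of Ndufa12 were 194, 192, 191, 163 and 191 CPM in vehicle sham mice and 109, 131, 108, 114 and 151 CPM in vehicle MOV mice, a wide spread with mouse 5 the highest. In D + Q mice they were 193, 191, 180, 181 and 183 CPM with sham and 102, 105, 102, 109 and 98.2 CPM with MOV. On the TMM scale Ndufa12 fell by 33.9% in vehicle mice (adjusted p = 5.58e-05) and by 42.9% in D + Q mice (adjusted p = 5.52e-10). With total counts only its log2 fold changes were -0.225 in vehicle mice and -0.44 in D + Q mice. Ndufs4, needed for a stable NADH-oxidizing end of the arm, had log2 fold changes of -0.58 and -0.48. With total counts only Ndufs4 had -0.20 in vehicle mice, called lower, and -0.12 in D + Q mice, not called. At the other end, Ndufa2 had -0.19 in vehicle mice (adjusted p = 0.0486) and -0.27 in D + Q mice, and with total counts only it was called higher in vehicle mice (0.19, adjusted p = 0.0483). Ndufa2 overlapped between vehicle MOV and sham mice, at 117, 126, 99.5, 124 and 120.2 CPM against 126, 149, 135, 124 and 137 CPM. Its vehicle call was also lost under DESeq2, RLE factors and no count filter, and for 8 of 10 mice left out (-0.12 without vehicle MOV mouse 3 was the smallest). Ndufa2 and Ndufs4 were singled out here after their values were seen.

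In the membrane arm, 19 of the 20 accessory subunits were called lower in vehicle mice and 20 in D + Q mice on the TMM scale, against 3 lower and 2 higher and against 8 lower and 1 higher with total counts only. Ndufb4 had the largest fall of the class in both treatments. It stood at 111, 118, 111, 109 and 107 CPM in vehicle sham mice and 70.9, 79.99, 68.0, 76.6 and 71.5 CPM in vehicle MOV mice. With D + Q it stood at 116, 106, 120.1, 107 and 102.6 CPM in sham mice and 63.9, 68.7, 66.5, 75.5 and 60.2 CPM with MOV. On the TMM scale MOV and sham mice did not overlap (log2 fold change -0.59 ± 0.063 (SE), adjusted p = 1.47e-06 with vehicle, log2 fold change -0.68 ± 0.066 (SE), adjusted p = 7.57e-08 with D + Q). With total counts only the log2 fold changes of Ndufb4 were -0.22 with vehicle and -0.32 with D + Q. The table also lists Ndufb4c, by its name a copy of this gene, which took 36.2% of the counts of the pair, so how reads were divided between them is uncertain. The sum of both rows had log2 fold changes of -0.65 and -0.65, and its adjusted p was 9.64e-07 and 3.75e-08.

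The smallest differences of the membrane arm were those of Ndufa1 and Ndufb3, singled out after their values were seen. Ndufa1, a small subunit at the junction of the arms encoded on the X chromosome, stood at 66.0, 71.9, 68.9, 62.5 and 70.7 CPM in vehicle sham mice and 59.5, 70.7, 51.6, 59.98 and 62.2 CPM in vehicle MOV mice, which overlap (log2 fold change -0.15 ± 0.078 (SE), adjusted p = 0.101). It fell in D + Q mice (adjusted p = 0.000824), although those groups overlap too. Ndufb3 had -0.19 ± 0.073 (SE) and -0.17 ± 0.065 in vehicle and D + Q mice on the TMM scale, both called lower, and 0.19 and 0.20 with total counts only, both called higher. Leaving out single mice also ended its call, for 8 of 10 mice with vehicle (-0.15 without vehicle MOV mouse 3 was the smallest) and for 4 of 10 with D + Q (-0.12 without D + Q sham mouse 1). Ndufa1 was called higher with total counts only in vehicle mice (0.22, adjusted p = 0.0162).

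Ndufab1, the mitochondrial acyl carrier protein, serves complex I as an accessory subunit and also takes part in fatty acid and iron-sulfur cluster synthesis. Its log2 fold change was -0.56 ± 0.075 (SE) in vehicle mice and -0.47 ± 0.06 in D + Q mice. Ndufa4 was named as a complex I subunit and is now assigned to complex IV. It stood at 376, 459, 376, 362 and 392 CPM in vehicle sham mice and 259, 285, 249.6, 271 and 256 CPM in vehicle MOV mice, and its log2 fold changes of -0.57 and -0.55 lay beside the median of 10 complex IV genes (-0.49 and -0.51). Both genes were called lower in both treatments on the TMM scale. Ndufab1 lost its call in D + Q mice with total counts only.

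The 9 assembly factors varied more than the subunits. On the TMM scale 6 were called lower in vehicle mice and 7 in D + Q mice, with medians of -0.48 and -0.44, and with total counts only the calls were 3 lower and 3 higher in vehicle mice and 3 lower and 1 higher in D + Q mice. Ndufaf6, needed for making the mitochondrially encoded subunit of the junction, had the largest fall of the 47 genes in both treatments. It stood at 18.3, 20.2, 16.4, 18 and 19.5 CPM in vehicle sham mice and 9.47, 9.99, 10.0, 8.23 and 12.3 CPM in vehicle MOV mice. The D + Q levels were 17.4, 18.4, 15.8, 17.5 and 16.7 CPM with sham and 10.2, 7.87, 9.20, 10.1 and 8.14 CPM with MOV. No MOV mouse reached a sham mouse. On the TMM scale Ndufaf6 fell by 45.6% with vehicle (log2 fold change -0.88 ± 0.11 (SE), adjusted p = 5.36e-06) and by 45.3% with D + Q (log2 fold change -0.87 ± 0.094 (SE), adjusted p = 2.81e-07). With total counts only its log2 fold change was -0.51 in each treatment.

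Ndufaf5, which hydroxylates Ndufs7, and Ndufaf4, which with Ndufaf3 guides the early peripheral arm, also fell. Ndufaf5 stood at 29.8, 27.1, 29.5, 26.9 and 30.2 CPM in vehicle sham mice and 18.5, 15.0, 15.7, 19.5 and 14.8 CPM in vehicle MOV mice, and its log2 fold changes were -0.77 ± 0.09 (SE) and -0.75 ± 0.068 in vehicle and D + Q mice. Ndufaf4 stood at 42.4, 47.5, 41.9, 35.9 and 44.9 CPM in vehicle sham mice and 26.7, 24.5, 23.6, 21.4 and 28.6 CPM in vehicle MOV mice, with log2 fold changes of -0.76 ± 0.091 and -0.65 ± 0.077. Neither overlapped between surgeries on the TMM scale. With total counts only, Ndufaf5 had -0.39 in each treatment, and Ndufaf4 had -0.39 in vehicle mice and -0.28 in D + Q mice. Ndufaf1, part of a membrane assembly complex, had -0.53 ± 0.089 and -0.50 ± 0.064, and Ndufaf7, an arginine methyltransferase, had -0.48 ± 0.081 and -0.30 ± 0.094, all called lower on the TMM scale. Neither of the latter kept its call in either treatment with total counts only, and Ndufaf7 had 0.06 in D + Q mice.

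The remaining assembly factors had smaller or uncalled differences. Ndufaf2 stood at 7.12, 8.62, 7.52, 5.62 and 6.70 CPM in vehicle sham mice and 8.42, 6.83, 5.94, 8.10 and 8.30 CPM in vehicle MOV mice, which overlap (log2 fold change 0.09 ± 0.14 (SE), adjusted p = 0.608). In D + Q mice the levels were 7.85, 8.60, 7.12, 6.99 and 7.26 CPM with sham and 7.70, 6.83, 7.04, 6.86 and 6.64 CPM with MOV (log2 fold change -0.07 ± 0.11 (SE), adjusted p = 0.602). Ndufaf2 was called higher in both treatments with total counts only (0.47 and 0.30).

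Ndufaf8, the partner of Ndufaf5, had -0.14 ± 0.081 (SE) in vehicle mice, not called, and -0.31 ± 0.10 in D + Q mice, called lower with overlapping groups. With total counts only it had 0.24, called higher, and 0.06, not called. Ndufaf3 had -0.31 ± 0.11 (adjusted p = 0.0229) and -0.25 ± 0.11 (adjusted p = 0.0517), and its vehicle call was lost without vehicle sham mouse 2 or without vehicle MOV mouse 3. Its values were, with total counts only, 0.07 and 0.11, neither called. Timmdc1, a membrane protein needed to build the inner part of the membrane arm, is described with the treatment below. It was not called in vehicle mice (log2 fold change -0.14 ± 0.075 (SE), adjusted p = 0.13), where total counts only called it higher (0.24), and it was called lower in D + Q mice (log2 fold change -0.44 ± 0.068 (SE), adjusted p = 1.73e-05). This D + Q call was lost with total counts only (-0.08, adjusted p = 0.359).

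**Figure D3:**
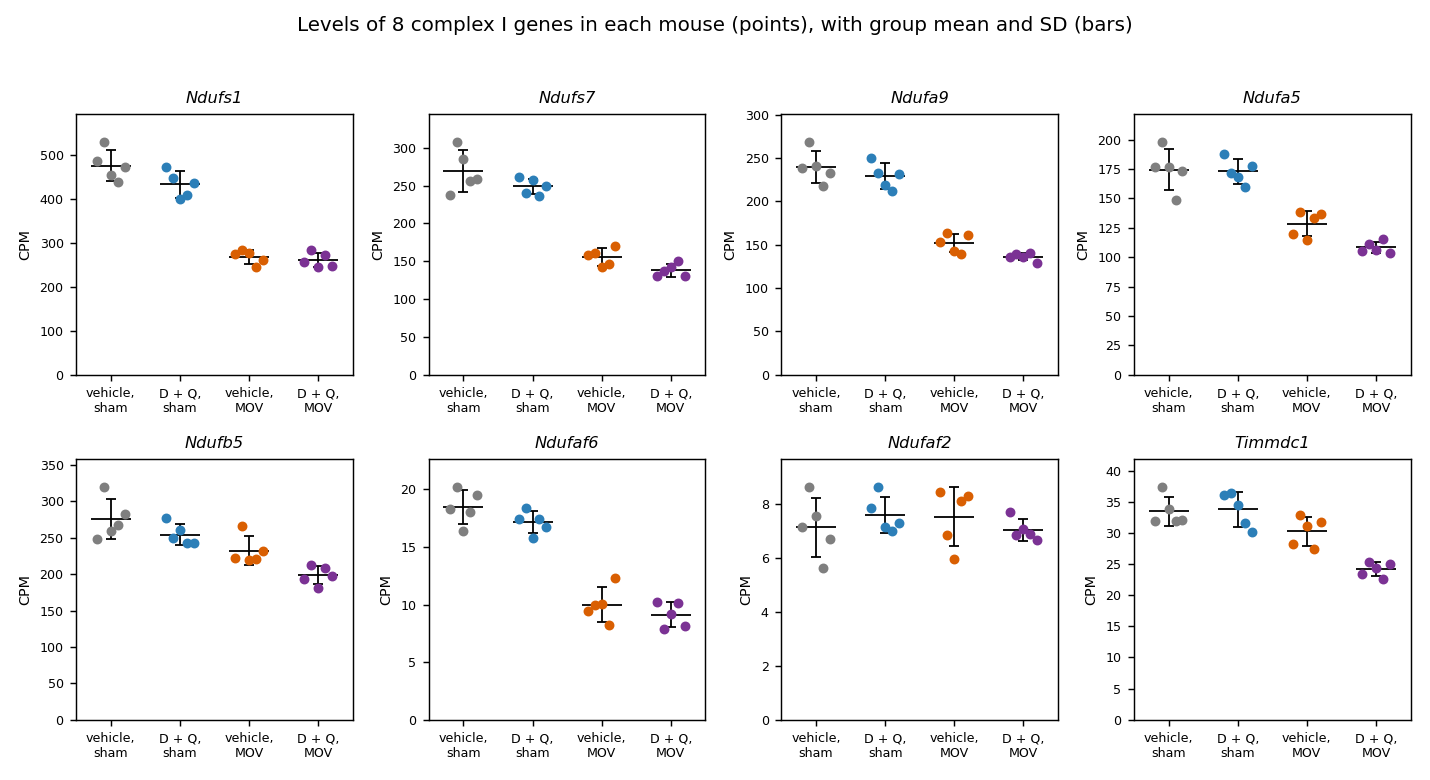
CPM (TMM scaled, y axis from 0) of 8 complex I genes in each of 20 mice (points) by group (x axis), with the group mean and SD as bars. On this scale Ndufs1, Ndufs7, Ndufa9 and Ndufaf6 separate MOV from sham mice in both treatments, and Ndufaf2 does not. The D + Q MOV mice are here the lowest group for Timmdc1 and Ndufb5. With total counts only Timmdc1 and Ndufaf2 were called higher with MOV in vehicle mice. Ndufb5 then had 0.05 with MOV in D + Q mice, not called.

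The 7 mt-Nd genes, which encode the core of the membrane arm in the mitochondrial genome, had larger falls than the nuclear genes, a difference described here and not tested. All 7 were called lower in both treatments under both scalings, with a median log2 fold change of -1.07 in vehicle mice and -1.10 in D + Q mice (-0.70 and -0.74 with total counts only). mt-Nd1, which carries part of the ubiquinone channel, stood at 18190, 16870, 15660, 15990 and 17070 CPM in vehicle sham mice and 7850, 7497, 7078, 6123 and 7515 CPM in vehicle MOV mice. Every sham mouse lay above every MOV mouse (log2 fold change -1.21 ± 0.089 (SE), adjusted p = 4.98e-08). For mt-Nd1 the D + Q mice gave log2 fold change -1.17 ± 0.078 (SE), adjusted p = 8.65e-10.

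The ratio of summed mt-Nd CPM to the summed CPM of the 37 nuclear subunits does not depend on the scaling factor. It was 10.9, 8.36, 8.94, 9.53 and 9.34 in vehicle sham mice and 6.69, 6.36, 6.67, 5.23 and 6.18 in vehicle MOV mice. In D + Q mice it was 9.66, 9.68, 8.79, 8.64 and 9.63 with sham and 6.60, 6.38, 5.96, 6.57 and 6.50 with MOV. Every MOV mouse had a lower ratio than every sham mouse. The ratio of the summed genes of complexes III, IV and V to the same 37 subunits lay between 2.30 and 2.49 in all 20 mice. It was 2.41 to 2.49 in vehicle sham mice and 2.30 to 2.42 in vehicle MOV mice, ranges that overlap. With D + Q it was 2.38 to 2.43 in sham mice and 2.32 to 2.37 in MOV mice, where every MOV mouse lay below every sham mouse.

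**Figure D4:**
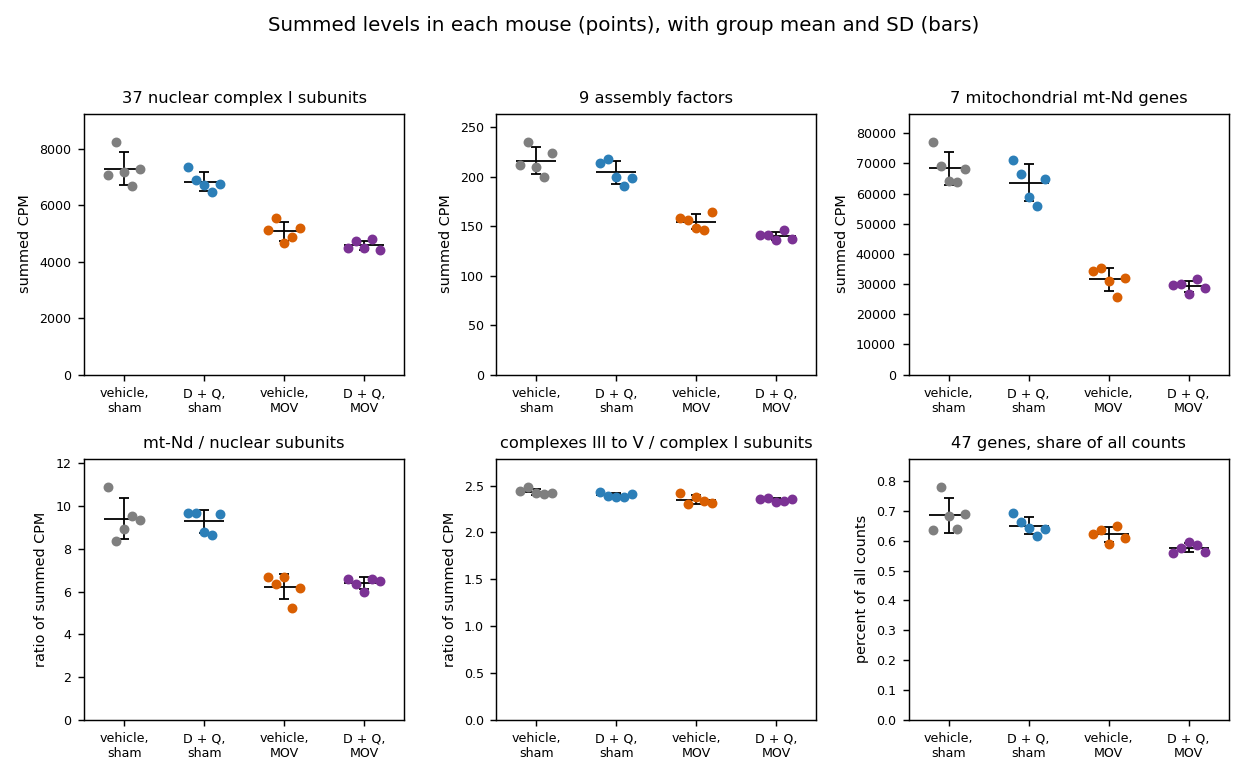
Summed CPM of 37 nuclear complex I subunits, 9 assembly factors and 7 mt-Nd genes, the ratios of mt-Nd genes and of complexes III to V to the subunits, and the percent of all counts held by the 47 genes, in each mouse (points) with group mean and SD (bars, y axes from 0). The mt-Nd ratio is 8.36 to 10.9 in sham mice and 5.23 to 6.69 in MOV mice, and the ratio of complexes III to V lies between 2.30 and 2.49, lower in every D + Q MOV mouse than in every D + Q sham mouse and overlapping in vehicle mice.

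Other genes tied to complex I by function moved in the same range. Of 10 tested assembly factors that carry other names, 8 were called lower in each treatment on the TMM scale (median -0.56 and -0.51), and 4 lower and 2 higher with total counts only. Tmem186 and Tmem126b, parts of the same membrane assembly complex as Ndufaf1, had -0.76 ± 0.09 (SE) and -0.69 ± 0.076 in vehicle mice, while Dmac1 and Lyrm2, named after their values were seen, had 0.15 ± 0.088 and 0.16 ± 0.14, not called. The 4 subunits of complex II (succinate dehydrogenase), 9 of complex III and 10 of complex IV were called lower in both treatments on the TMM scale, and of 15 genes of complex V (ATP synthase) 13 were in vehicle mice and 15 in D + Q mice. Their medians were -0.64, -0.51, -0.49 and -0.47 in vehicle mice and -0.58, -0.50, -0.51 and -0.49 in D + Q mice, beside -0.50 for the 47 genes in each. With total counts only the vehicle calls were 3, 3, 3 and 4 lower, with 1 complex V gene higher. Of 8 regulators of mitochondrial biogenesis 6 were called lower and 1 higher in vehicle mice. Ppargc1a, the coactivator PGC-1α, had -0.93 ± 0.18, Esrra, the nuclear receptor ERRα, had -0.58 ± 0.095, and Nrf1 had 0.32 ± 0.11. With total counts only the regulators counted 1 lower and 3 higher. In D + Q mice 5 regulators were called lower and 1 higher on the TMM scale, with a median of -0.21 against -0.38 in vehicle mice.

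Markers of other cell types moved with the surgery, and their part in the complex I difference was not tested. In vehicle mice 8 of 8 fibroblast markers and 8 of 8 macrophage markers were called higher with MOV, with medians of 3.96 and 2.66, and 6 of 8 endothelial markers with a median of 0.69. Of 12 myofibre markers 8 were called lower and 1 higher, with a median of -0.73, against 8 lower and 4 higher with total counts only. The fast glycolytic fibre gene Myh4 had -1.56 ± 0.10 (SE) and Myh2, of fast oxidative fibres, had 0.74 ± 0.13. In these lists no marker was at 0 in any mouse. Of the smaller lists, 3 of 4 tested satellite cell markers and 2 of 5 Schwann cell markers were called higher, 3 of 4 tested adipocyte markers lower and 1 higher, and 0 of 5 erythroid markers either way.

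The comparison of D + Q with vehicle in MOV muscle asks whether the senolytic left the complex I genes at another level in overloaded muscle. No gene of the 47 was called, nor was any of the 15238 genes tested (0%), and the lowest adjusted p among the 47 was 0.523. DESeq2 called 8 genes in all and none of the 47. At an unadjusted p under 0.05, 25 of the 47 were lower and 0 higher, against 4.61% of genes tested that were lower. On the TMM scale all 47 log2 fold changes were below 0, with a median of -0.16 and a range from -0.34 to -0.04, while the median of all genes tested was 0.00. The pooled SD between mice of a group in the median log2 CPM of the 47 genes was 0.074, and because the genes move together within a mouse, the 47 signs are not 47 separate observations. In 7 genes every D + Q mouse lay below every vehicle mouse, against 0.591% of genes tested. With total counts only the median of the 47 was -0.10, and some values, such as 0.009 for Ndufaf5 and 0.004 for Ndufaf7, lay above 0. The unadjusted count was 12 with total counts only. It was 10 without D + Q MOV mouse 5, 13 without D + Q MOV mouse 1 or vehicle MOV mouse 2, 14 without vehicle MOV mouse 5, 15 without D + Q MOV mouse 3 and between 20 and 31 without any other mouse. MOV with and without D + Q shares its vehicle mice with the surgery comparison above, so the values of each are given side by side and are not independent.

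Timmdc1 had the smallest p and the largest difference. Its levels were 28.2, 32.9, 31.2, 27.5 and 31.7 CPM in vehicle MOV mice and 23.4, 25.4, 24.4, 22.7 and 25.0 CPM in D + Q MOV mice. In sham muscle they were 31.9, 37.4, 33.9, 31.9 and 32.1 CPM with vehicle and 36.2, 36.5, 34.5, 31.6 and 30.2 CPM with D + Q. On the TMM scale the D + Q MOV mice were the lowest 5 of the 20, and the other groups overlapped. That ranking across surgeries depends on the scaling. With total counts only, MOV against sham in D + Q mice had -0.08, not called. For D + Q against vehicle in MOV muscle the log2 fold change was -0.34 ± 0.073 (SE), with an unadjusted p of 0.000326 that did not pass over all genes (adjusted p = 0.523). With total counts only it was -0.28. Timmdc1 lies at chr16:38309908-38343041, minus strand, in GRCm39, and its exons overlap exons of other genes on the opposite strand, Cd80 among them, which unstranded counting could not tell apart.

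Ndufa5 and Ndufa6 are accessory subunits of the peripheral arm, and Ndufa6 binds an acyl carrier. Ndufa6 stood at 133, 133, 117, 129 and 129 CPM in vehicle MOV mice and 103.2, 116, 112, 115 and 107 CPM in D + Q MOV mice, without overlap (log2 fold change -0.23 ± 0.066 (SE), adjusted p = 0.523). Ndufa5 stood at 119, 138, 115, 133 and 137 CPM and 105, 111, 106, 116 and 103.4 CPM in the same groups, where 1 D + Q mouse passed 1 vehicle mouse (log2 fold change -0.26 ± 0.072 (SE), adjusted p = 0.523). Neither passed the threshold.

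Ndufb5, Ndufb6 and Ndufs5 are accessory subunits of the membrane arm. Ndufb5 stood at 222, 266, 219, 220.3 and 231 CPM in vehicle MOV mice and 193, 212, 181, 209 and 198 CPM in D + Q MOV mice (-0.24 ± 0.079, SE). Ndufb6 stood at 61.3, 69.6, 59.0, 67.9 and 70.0 CPM and 52.6, 56.3, 58.5, 58.5 and 58.1 CPM (-0.22 ± 0.069), and Ndufs5 at 89.7, 98.2, 86.7, 87.1 and 91.6 CPM and 77.5, 86.2, 79.2, 86.0 and 78.8 CPM (-0.17 ± 0.066). In each of them the highest D + Q mouse stayed just under the lowest vehicle mouse. The core subunit Ndufv2 and Ndufa4 made up the rest of the 7, with log2 fold changes of -0.15 ± 0.063 and -0.16 ± 0.067. Adjusted p was 0.523 to 0.547 in these genes.

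By class, the median log2 fold change with D + Q in MOV muscle was -0.16 in the core subunits, -0.19 in the accessory subunits of the peripheral arm, -0.16 in those of the membrane arm and -0.12 in the assembly factors. Other respiratory genes lay in the same range, with -0.14 in the mt-Nd genes and in complex II, -0.16 in complex III, -0.18 in complex IV and -0.18 in complex V, and no gene of these lists was called. Whether complex I genes differed from these lists was not tested. Fibroblast markers had a median of 0.39, with 0 of 8 called and 5 of 8 higher at an unadjusted p under 0.05. The median was 0.24 in macrophage markers (1 of 8 higher at that p), -0.06 in endothelial markers and -0.06 in myofibre markers. The summed fibroblast level ran from 11900 to 17170 CPM in D + Q MOV mice and from 6875 to 13510 CPM in vehicle MOV mice, and its part in the differences was not tested.

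**Figure D5:**
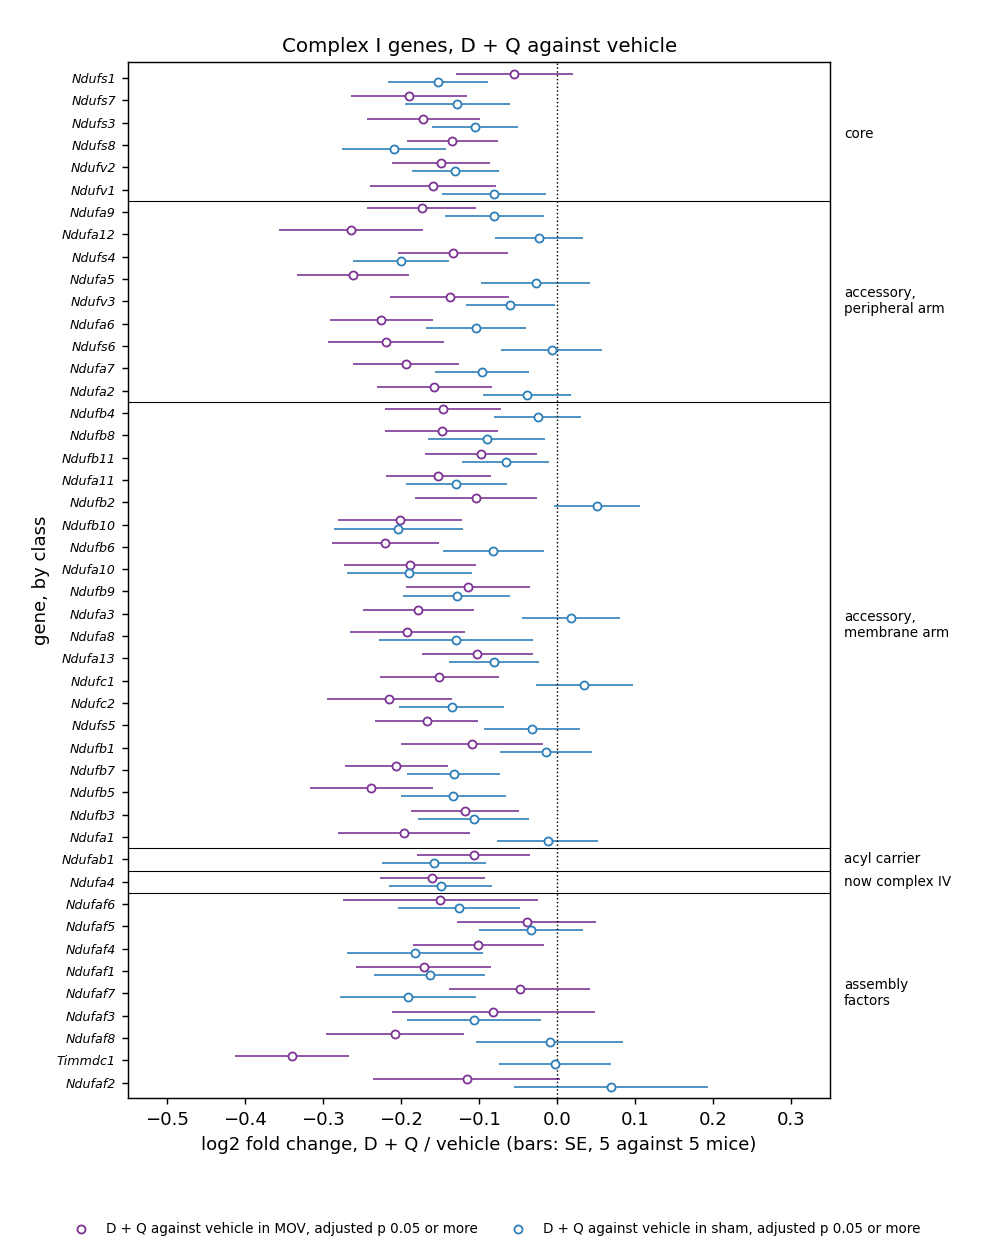
Log2 fold change of D + Q against vehicle (x axis, bars show SE, 5 against 5 mice) for 46 of the 47 complex I genes (y axis, by class) in MOV (purple) and sham muscle (blue), all points open because no adjusted p is under 0.05. On the TMM scale drawn here, all 46 points lie left of 0 in MOV muscle with a median of -0.16 and Timmdc1 the farthest at -0.34, and in sham muscle 42 lie left of 0 with a median of -0.10.

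In sham muscle the comparison of D + Q with vehicle called 0 of the 47 genes, against 0.215% of 13926 genes called in either direction. At an unadjusted p under 0.05, 12 of the 47 were lower and 0 higher, against 4.8% of genes tested that were lower. The log2 fold change was below 0 in 43 genes, with a median of -0.10 and a range from -0.21 to 0.07. No gene of the 47 separated the groups, against 0.697% of genes tested in which every D + Q mouse was lower. The difference rested in part on single mice. Without vehicle sham mouse 2 the median was -0.05 and 3 genes were lower at an unadjusted p under 0.05. That count was 3 without D + Q sham mouse 4, 5 without D + Q sham mouse 5, 6 without vehicle sham mouse 5 or D + Q sham mouse 3, 19 without D + Q sham mouse 1 and 4 with total counts only. DESeq2 also called 0 of the 47. Fibroblast markers had a median of 0.63, with 0 of 8 called and 6 of 8 higher at an unadjusted p under 0.05, and their part was not tested.

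Among the smallest p-values in sham muscle were those of the core subunit Ndufs8 and of Ndufs4. Ndufs4 stood at 166, 179, 156, 154 and 169.7 CPM with vehicle and 158, 149, 147, 130.5 and 141 CPM with D + Q (log2 fold change -0.20 ± 0.062 (SE), adjusted p = 0.24). Ndufs8 stood at 119.5, 137, 116, 112 and 123 CPM with vehicle and 116, 114, 100.4, 96.8 and 105 CPM with D + Q (log2 fold change -0.21 ± 0.067 (SE), adjusted p = 0.263). The groups overlapped in both, and vehicle sham mouse 2 was the highest mouse in each.

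Whether the difference with D + Q depended on the surgery was tested as the interaction over all 20 mice. None of the 47 genes was called, against 0.0127% of 15700 genes called in either direction, and 5 were lower at an unadjusted p under 0.05, against 3.17%. The median interaction was -0.07. Timmdc1 had the largest, -0.34 ± 0.099 (SE) on the log2 scale, with an unadjusted p of 0.00205 and an adjusted p of 0.555. Ndufa5 and Ndufa12 followed at -0.24 ± 0.099 and -0.24 ± 0.11, with adjusted p of 0.809 and 0.824. DESeq2 also called 0 of the 47. The unadjusted count lay between 1 (without vehicle sham mouse 4) and 10 (without vehicle sham mouse 2) with 1 mouse left out, and it was 9 without vehicle MOV mouse 3 and 8 without D + Q MOV mouse 4.

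With both surgeries in 1 additive fit over 20 mice, D + Q was compared with vehicle at more precision. No gene of the 47 was called by edgeR, against 0.0255% of 15700 genes in either direction, and the lowest adjusted p was 0.1, in Ndufb7 and Ndufs8. At an unadjusted p under 0.05, 28 of the 47 were lower, against 5.79%. On the TMM scale all 47 log2 fold changes were below 0 with a median of -0.12, and the median was -0.09 with total counts only. The smallest p-values were those of Ndufb7 (-0.16 ± 0.041, SE), Ndufs8 (-0.16 ± 0.042) and Ndufv2 (-0.13 ± 0.037). DESeq2 called 9 of the 47 lower, against 0.611% of genes tested, among them Ndufs4, Ndufs8, Ndufv2, Ndufa4, Ndufa6, Ndufb5, Ndufb7 and Ndufb10, with adjusted p from 0.0102 to 0.0473. Without vehicle MOV mouse 4, edgeR called 5. Fibroblast markers had a median of 0.54 in the same fit, with 0 of 8 called and 8 of 8 higher at an unadjusted p under 0.05, and their part was not tested. These mice are the same as in the comparisons within each surgery, so this fit adds no separate evidence.

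Across the 47 genes, the size of the change was related to length in some comparisons, which is given as a description over genes of the same libraries. The Spearman correlation of the log2 fold change with coding length was -0.54 for MOV in vehicle mice, -0.31 for MOV in D + Q mice, 0.17 for D + Q in MOV muscle and -0.50 for D + Q in sham muscle. With transcript length it was -0.34, -0.19, 0.43 and -0.24 in the same order. The longest coding sequence, that of Ndufs1 at 2181 bases, belonged to the subunit with the largest fall in vehicle mice. Ndufa1, with 210 coding bases, had one of the smallest differences. The largest fall of all 47 was that of Ndufaf6, with 999 coding bases, and Ndufb1, with the shortest at 171, was called lower. Length also differs between the classes, and its part was not tested. In 29 of the 47 genes an exon overlapped an exon of another gene on the opposite strand, and whether strand was used in counting is not given in the sources used here.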

How the data were processed

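Whole plantaris RNA of 20 mice was sequenced. Per the labels and the study's methods, the authors aligned reads with STAR 2.7.8a to GRCm39 in Partek and deposited estimated counts per gene, of which 29.8% were not whole. They were rounded here. In R 4.3.3, edgeR 4.0.16 was used for the quasi-likelihood test (TMM factors, robust fit, at least 10 counts in at least 5 mice), with Benjamini-Hochberg adjustment over all genes tested. The 4 comparisons of 2 groups used 10 mice each, and the interaction and the fit over both surgeries used 20. Standard errors are the log2 fold change over the root of F. Alternatives were DESeq2 1.42.0, RLE factors, total counts, no filter, a replicate block, all 20 mice in 1 fit and each mouse left out. Tests were checked on simulated counts with independent genes and with changes larger than any D + Q difference of the 47 genes. That check therefore does not show how often differences of that size would be called. Total counts of 17887495 to 26234505 limit low genes most, and 20 rows repeat a gene name. The named genes are the core subunits, the assembly factors, Ndufa4, Ndufab1, the 3 largest called changes among other genes in each direction (or the 3 smallest p-values), those whose D + Q and vehicle mice did not overlap, the 3 highest and 3 lowest per kilobase, the mt-Nd genes and up to 4 examples of each other list. Of the 47 genes, 1 enters the counts, sums and medians, but its own values are not reported here. The genes and lists were chosen with earlier results of these data known.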

Additional observations from a re-analysis of the deposited data

Results flagged for a closer look

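In 7 of 184 groups of 5 mice, 1 mouse stood far from the other 4, its gap to the nearest being over 0.71 of the range of the group (Dixon's critical value for 5). Chance alone marks about 1 in 20 groups. Ndufa12 was at 163.2 CPM in vehicle sham mouse 4. In D + Q sham mouse 1, Ndufaf1 was at 35.22 CPM and Ndufs3 at 223.2 CPM. Ndufa6 was at 116.9 CPM in vehicle MOV mouse 3, and Ndufb5 at 266.5 CPM in vehicle MOV mouse 2. Ndufa7 was at 75.37 CPM in D + Q MOV mouse 3, and Ndufb1 at 64.82 CPM in D + Q MOV mouse 4.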

How the results depend on the processing

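With total counts only, 24 genes were called for MOV in vehicle mice (18 lower, 6 higher; median -0.1224) and 26 in D + Q mice (24 lower, 2 higher; median -0.1378). Under that scaling the sign turned in vehicle mice for Timmdc1 (0.2366), Ndufa2 (0.1903), Ndufa1 (0.2185), Ndufs6 (0.01343), Ndufb3 (0.1855), Ndufb5 (0.1293), Ndufs5 (0.03638), Ndufb7 (0.1074), Ndufa7 (0.125), Ndufaf3 (0.0661), Ndufaf8 (0.2406) and Ndufb1 (0.06263). In D + Q mice it turned for Ndufa2 (0.09125), Ndufa1 (0.05717), Ndufaf7 (0.06156), Ndufb3 (0.1957), Ndufb5 (0.04627), Ndufb7 (0.05727), Ndufa7 (0.05188), Ndufaf2 (0.2979), Ndufaf3 (0.1096) and Ndufaf8 (0.05695). For D + Q over both surgeries DESeq2 called 9 genes, and leaving out 1 mouse gave 0 to 5 calls in edgeR. The cause was not tested. Leaving out 1 mouse gave 39 to 43 calls for MOV in vehicle mice and 44 to 46 in D + Q mice. With the replicate block the calls were 42 and 45 for MOV and 0 in each of the other 4 comparisons; same-numbered mice correlated above 0.1 in 2 of 20 pairs, so the numbers were not taken to pair mice. DESeq2, RLE factors and no filter gave 42 to 46 calls for MOV. Depth limits the assembly factors most, since the lowest count of any of the 47 genes in a mouse was 97 and the highest 14548.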
